A study of Oryza sativa with 9 samples.

Results

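Hydrogen peroxide is handled in a plant cell by several enzymes, and transcripts of 5 rice loci for such enzymes were followed: 3 described as peroxidase, 1 as L-ascorbate peroxidase and 1 as glutathione peroxidase. They were taken because the authors' deposited tables list them as differentially expressed, so they were chosen by their own measured means, ratios and probabilities, and these are given as a description without a test. Each locus had 1 listed transcript, making 5 of the 832 transcripts (0.601%) and 5 of the 727 loci in the 3 tables. These transcripts filled 7 of 1251 rows.

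Spikelets, which are the rice (Oryza sativa) florets with their hulls, were sampled from BC14F2 plants. A BC14F2 family comes from repeated backcrossing to one parent and a final selfing, and all plants of the study share that history. The plants differed at f5, a locus of male sterility in hybrids between rice subspecies: they were homozygous f5-i/i, homozygous f5-j/j or heterozygous f5-i/j, with 3 samples per genotype and 9 in all. Whether the 3 came from separate plants is not said in the labels. The labels name ordinary field management and no treatment, and neither plant age nor spikelet stage is stated in the labels. A spikelet mixes hull, anther and pistil tissue, so fewer cells of a type and less RNA per cell cannot be told apart in these values.

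Peroxidases of the plant secretory class are haem enzymes that use hydrogen peroxide to oxidise phenolic compounds, for instance when cell walls are cross-linked or lignified. Ascorbate peroxidase reduces hydrogen peroxide to water with ascorbate as the electron donor, and plant glutathione peroxidases do so mainly with electrons from thioredoxin. Catalase breaks hydrogen peroxide down in peroxisomes. Respiratory burst oxidases make superoxide at the plasma membrane, from which hydrogen peroxide forms. In anthers, timed production and removal of these oxidants is known to accompany the programmed death of the tapetum, the tissue that nourishes pollen.

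The values are the authors' mean abundance of each transcript in each genotype, in a unit not stated, with 0.01 as the lowest value. Values of the single samples are not analysed here: no mean has an error, depth is unknown, and differences cannot be set against the spread between replicates. All deposited means (100%) were whole multiples of 0.01/3 (tolerance 1e-06), as averages of 3 values with 2 decimals would be. Under that reading no single sample can exceed 3 times its genotype's mean, and at least 1 sample must reach the mean. Limits given below rest on it. They restate the means: any transcript with means more than 3 times apart meets them, so they are no separate evidence of a difference. Levels were not compared between genes, because it is not stated whether the unit allows for transcript length. A genotype's mean is known only where a comparison with it was listed, that is, where the authors' deposited table held it, and every listed probability was at least 0.8.

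The 3 peroxidases were higher in the heterozygote than in f5-j/j, and none of them was listed in either comparison with f5-i/i. LOC_Os12g02080.2, on chromosome 12, showed authors' means of 37.3 in the heterozygote and 7.84 in f5-j/j, a ratio of 4.76. No f5-j/j sample can have exceeded 23.5, so at least 1 heterozygous sample lay above all of them. This transcript model is short, with a coding length of 564 bases (188 codons including the stop), against 963 bases for LOC_Os03g22010.1 and 1035 for LOC_Os05g04500.1. Its best described match in the authors' deposited table was the rice protein Os12t0112000-01, and its terms were cytoplasmic vesicle, antioxidant activity, iron ion binding and response to stress.

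LOC_Os03g22010.1, on chromosome 3, showed authors' means of 12.8 in the heterozygote and 1.15 in f5-j/j, a ratio of 11.1 (6.40 with 1 added to both means). Here the limit for a single f5-j/j sample was 3.46, again under the heterozygote mean. Its best described match was a protein of the wild rice Oryza brachyantha, at 1.39 bits of alignment score per codon in the authors' deposited table, against 1.83 for LOC_Os05g04500.1, whose match was a rice protein. It shared the terms cytoplasmic vesicle and response to stress with LOC_Os12g02080.2.

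For LOC_Os05g04500.1, on chromosome 5, the authors' mean was 13.9 in the heterozygote and 1.05 in f5-j/j. The ratio of 13.2 (7.23 with 1 added to both means) was the largest among the 3 peroxidases, and the limit for a single f5-j/j sample was 3.16. At least 1 heterozygous sample was thus above every f5-j/j sample for all 3 transcripts, while the order of the remaining samples cannot be told. This follows from ratios above 3 alone, and the same means chose the transcripts. Peroxidases form a large family in rice with similar copies, and the division of reads between such copies is an estimate that leaves single transcripts uncertain.

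**Figure D1:**
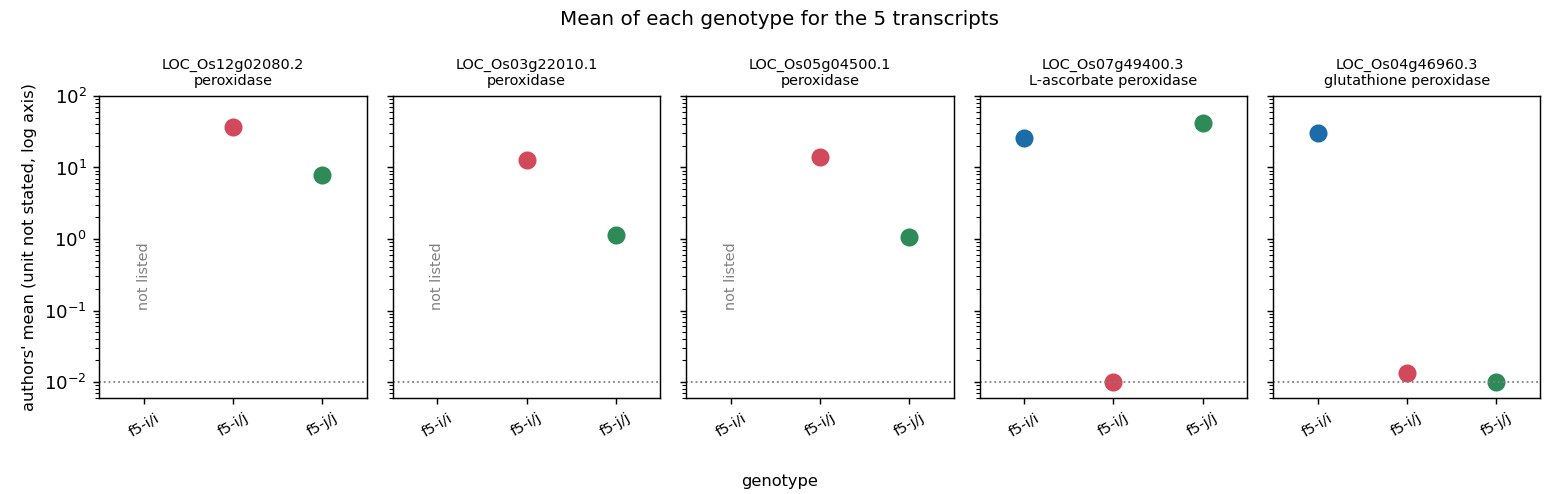
Authors' mean abundance (y axis, log scale, unit not stated) in each genotype (x axis) for the 5 transcripts, 1 panel each; points are means without an error, the dotted line is the lowest value of 0.01, and "not listed" marks a genotype without a deposited mean. The peroxidases are higher in the heterozygote than in f5-j/j, the L-ascorbate peroxidase is at 0.01 in the heterozygote alone, and the glutathione peroxidase is high in f5-i/i alone.

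The L-ascorbate peroxidase transcript LOC_Os07g49400.3, on chromosome 7, went the other way. The authors' mean was 25.6 in f5-i/i against 41.9 in f5-j/j, and in the heterozygote it was at the lowest value of 0.01. No heterozygous sample can have exceeded 0.03, whereas at least 1 sample of each homozygote reached its mean. The homozygotes were not listed as different from each other for this transcript. A fold against the lowest value is not given. The model has a coding length of 603 bases, and it carried the terms iron ion binding, antioxidant activity and response to stress. Since the value is that of 1 transcript model, it does not give the level of the locus: other models of it were not listed.

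Glutathione peroxidase LOC_Os04g46960.3, on chromosome 4, was high in f5-i/i alone. Its authors' mean was 30.3 in f5-i/i, 0.0133 in the heterozygote and 0.01 in f5-j/j. A single sample can have held at most 0.04 in the heterozygote and 0.03 in f5-j/j, so at least 1 f5-i/i sample exceeded all 6 samples of the other genotypes. The ratio of the f5-i/i to the heterozygote mean was 2272, but its size is set by a denominator next to the lowest value. The coding length of this model is 504 bases, and only this model of the locus was listed.

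By comparison, 0 of the 2 transcripts listed for the heterozygote against f5-i/i were higher and 2 were lower in the heterozygote, where 53.3% of all 480 listed transcripts were higher and 46.7% lower. For the heterozygote against f5-j/j, 3 of 4 were higher and 1 was lower, where 44.6% of all 350 were higher and 55.4% lower. Between the homozygotes the single listed transcript was higher in f5-i/i, where 45.1% of all 421 were higher and 54.9% lower. Nothing is read from these shares, because the same values chose the transcripts. Comparisons that share a genotype also share its samples: the 2 differences of the L-ascorbate peroxidase rest on the same heterozygote mean, and those of the glutathione peroxidase on the same f5-i/i mean.

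The peroxidases had deposited probabilities of 0.817 (LOC_Os12g02080.2), 0.808 (LOC_Os03g22010.1) and 0.819 (LOC_Os05g04500.1) in the authors' deposited table, ranking 269, 299 and 263 of 350. The lowest of these values lies just inside the bound of 0.8, and the table's median was 0.850. The L-ascorbate peroxidase ranked 5 of 350 against f5-j/j, with a probability of 0.994 in the authors' deposited table, and 19 of 480 against f5-i/i, with 0.985. The glutathione peroxidase ranked 14 of 480 for the heterozygote against f5-i/i (0.988) and 12 of 421 between the homozygotes (0.988) in the authors' deposited tables.

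**Figure D2:**
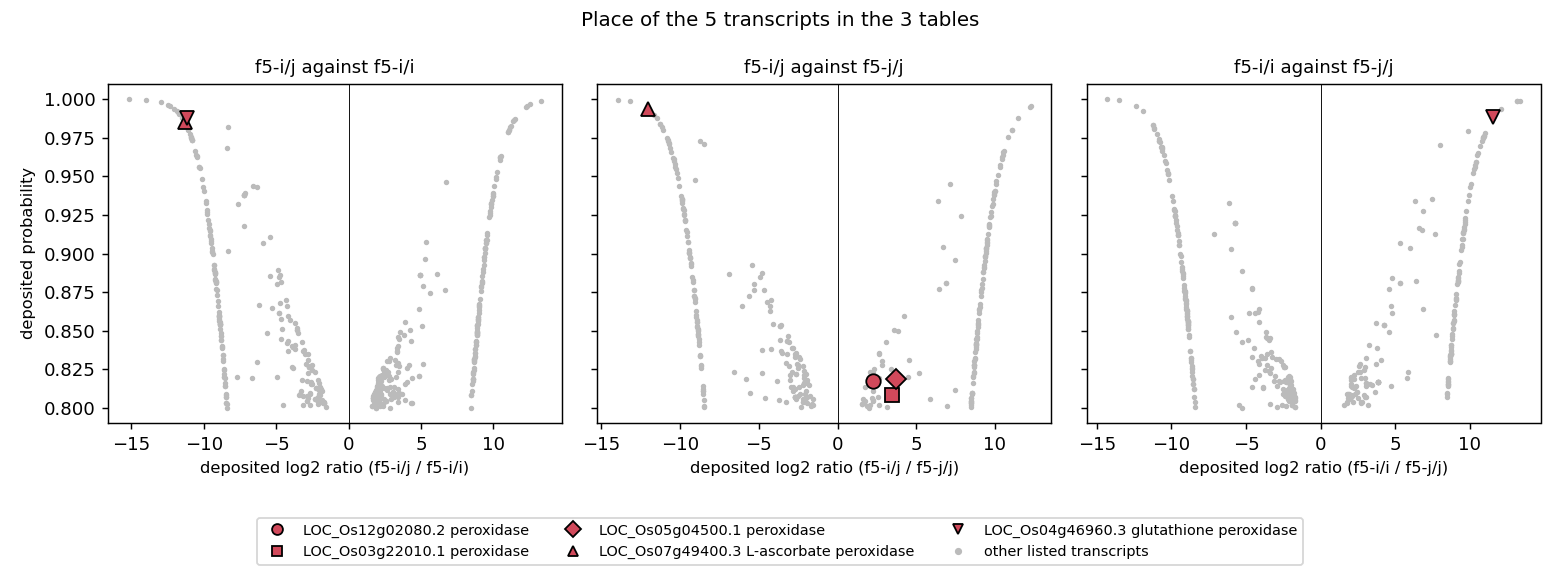
Deposited log2 ratio (x axis) and deposited probability (y axis) of every listed transcript in the 3 tables, 1 panel per comparison; grey points are other transcripts and red symbols the 5 described here. The peroxidases sit near the lower bound of 0.8 at log2 ratios of 2.25 to 3.72. L-ascorbate peroxidase and glutathione peroxidase sit above 0.98 on the outer arms, which are formed by transcripts at or next to the lowest value in 1 genotype.

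The profile of the L-ascorbate peroxidase, at the lowest value in the heterozygote and above it in both homozygotes, was shared by 51 transcripts of the 407 with means for all 3 genotypes. It ranked 6 among the 51 by the smaller of the homozygote means. Several of the 51 were described as ribosomal proteins. Among these, S26e (LOC_Os05g39960.3) had authors' means of 35.6 in f5-i/i, 0.01 in the heterozygote and 40.4 in f5-j/j. Its f5-j/j mean was above its f5-i/i mean, as for the L-ascorbate peroxidase. A subunit of mitochondrial NADH dehydrogenase (LOC_Os06g50000.2) had the reverse order, with authors' means of 51.1 in f5-i/i, 0.01 in the heterozygote and 41.8 in f5-j/j. Both were chosen after their values were seen. Likewise 76 transcripts were listed as higher in f5-i/i than in both other genotypes, as the glutathione peroxidase was. LOC_Os02g53400.1 was among them, described as thioredoxin from a match of 0.747 bits per codon. Plant glutathione peroxidases use electron carriers of that kind. Its authors' means were 19.5 in f5-i/i, 2.06 in the heterozygote and 1.51 in f5-j/j. Its deposited probabilities were 0.818 against the heterozygote and 0.829 between the homozygotes. The thioredoxin domain-containing protein LOC_Os03g17860.2 went the other way, at 0.01 in f5-i/i. A link of either to the glutathione peroxidase was not tested. The 3 peroxidases belonged to the 64 transcripts that were listed for the heterozygote against f5-j/j alone and were higher in the heterozygote. The planned search for the most similar profiles needed all 3 means above the lowest value, which 0 of the 5 transcripts had.

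Other transcripts of hydrogen peroxide metabolism were searched with 16 words in the description columns. Outside the 5 transcripts these words matched 15 transcripts of 14 loci. For the heterozygote against f5-i/i, 4 were listed higher and 2 lower in the heterozygote (53.3% of all listed transcripts were higher), with a median deposited log2 ratio of 5.56 against 1.84 over all listed transcripts outside the 5; these medians include ratios against the lowest value. With the 5 transcripts added the count was 4 and 4 and the median -0.58, which lies between ratios of -3.25 and 2.09 and belongs to no transcript. Medians of listed ratios of both signs mostly follow which direction holds more rows. No shift is read from these medians or from those below. For the heterozygote against f5-j/j, 4 were higher and 3 lower (44.6% of all were higher), with a median of 2.28 against -2.16 in the authors' deposited table. Between the homozygotes, f5-i/i was the higher for 4 and the lower for 6 (45.1% of all were higher), with a median of -1.87 against -1.95. The authors' deposited tables held no transcript described with 8 of the 16 words, superoxide dismutase and peroxiredoxin among them; the tables are filtered, so such transcripts may be unchanged or undetected.

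Among the other enzymes that remove hydrogen peroxide, catalase and a second L-ascorbate peroxidase were at the lowest value in f5-j/j. Catalase LOC_Os02g02400.2 showed authors' means of 4.96 in f5-i/i, 5.28 in the heterozygote and 0.01 in f5-j/j. The L-ascorbate peroxidase LOC_Os08g43560.2 showed authors' means of 5.35 in f5-i/i against 0.01 in f5-j/j, and was not listed against the heterozygote. It was thus listed as different between the homozygotes, which LOC_Os07g49400.3 was not listed as doing. A further peroxidase, LOC_Os05g04380.2, showed authors' means of 0.01 in f5-i/i, 21.7 in the heterozygote and 15.9 in f5-j/j. By locus number it is the listed locus nearest to LOC_Os05g04500 on chromosome 5, 120 numbers away, yet the heterozygote was listed as different from f5-i/i for the one and from f5-j/j for the other. In all, 4 loci described as peroxidase were listed, 3 of them only for the heterozygote against f5-j/j.

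Of the enzymes that make oxidants, the respiratory burst oxidase LOC_Os01g25820.2 was listed lower in f5-j/j than in both other genotypes. Its authors' mean was 31.7 in f5-i/i, 25.8 in the heterozygote and 4.13 in f5-j/j, a ratio of 6.26 between the heterozygote and f5-j/j. LOC_Os04g36720.1 carries the same description from a weak match of 0.167 bits per codon. Its authors' mean was 8.69 in f5-i/i, 37.1 in the heterozygote and 34.7 in f5-j/j. Polyamine oxidase LOC_Os04g53195.1, whose reaction releases hydrogen peroxide, was low in f5-i/i by the authors' means, at 0.01 against 3.53 in f5-j/j. No direction was common to the 3.

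Transcripts with thioredoxin, glutaredoxin or glutathione in their description also divided. The thioredoxin LOC_Os02g35900.1 showed authors' means of 5.69 in the heterozygote and 0.01 in f5-j/j. Monothiol glutaredoxin LOC_Os01g34620.8 had 22.2 in the heterozygote and 4.56 in f5-j/j by the authors' mean. The thioredoxin domain-containing protein LOC_Os03g17860.2 was at 0.01 in f5-i/i, with authors' means of 14.2 in the heterozygote and 6.06 in f5-j/j. These 3 were higher in the heterozygote than in the homozygote against which they were listed, unlike LOC_Os02g53400.1. Glutathione synthase LOC_Os11g42350.1, which completes glutathione synthesis, was at 0.01 in f5-i/i and the heterozygote, with an authors' mean of 4.91 in f5-j/j. LOC_Os01g70790.1, called lactoylglutathione lyase from a weak match of 0.150 bits per codon, showed authors' means of 15.0 in f5-i/i against 50.1 in f5-j/j. The remaining matches, LOC_Os07g48550.1 and 2 transcripts of LOC_Os09g38010, held the word glutathione only in a lower-ranked description. Their highest-ranked description was CCR4-NOT transcription complex subunit 7/8, so they may not belong to hydrogen peroxide metabolism. LOC_Os07g48550.1 showed authors' means of 4.62 in the heterozygote and 28.4 in f5-j/j. Of the others, LOC_Os09g38010.1 was at 0.01 in f5-i/i and 5.22 in the heterozygote, and LOC_Os09g38010.2 at 7.20 in f5-i/i, 0.01 in the heterozygote and 6.41 in f5-j/j, by the authors' mean.

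**Figure D3:**
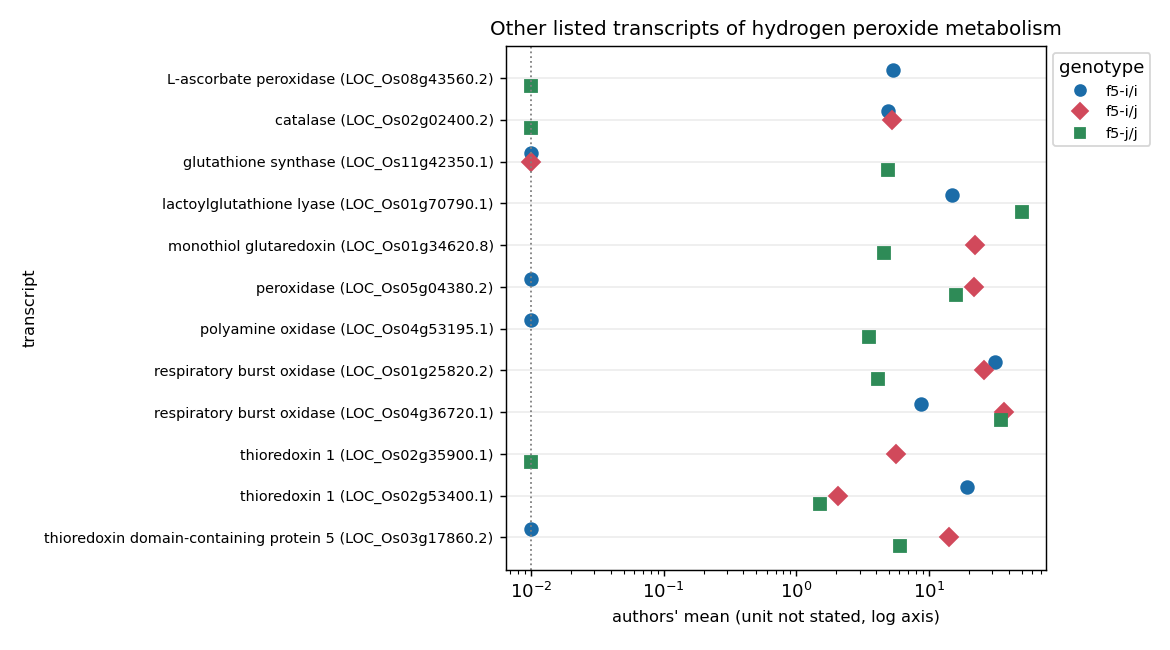
Authors' mean abundance (x axis, log scale, unit not stated) of the 12 other transcripts (y axis) whose highest-ranked description holds any of the 16 words. Circles are f5-i/i, diamonds f5-i/j and squares f5-j/j. A missing symbol is a genotype that was not listed, and the dotted line is 0.01. In f5-j/j the catalase, the second L-ascorbate peroxidase and a thioredoxin stand at 0.01. In f5-i/i the further peroxidase, the polyamine oxidase, the thioredoxin domain-containing protein and the glutathione synthase do. The glutathione synthase is at 0.01 in the heterozygote too.

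Few transcripts of the phenylpropanoid pathway, which supplies the phenols that peroxidases oxidise, were listed. The only locus matched was LOC_Os12g02370, described as chalcone isomerase of flavonoid synthesis, whose models were listed in different comparisons. That description came from weak matches, at 0.433 bits per codon for LOC_Os12g02370.2 and 0.481 for LOC_Os12g02370.4. LOC_Os12g02370.2 showed authors' means of 65.6 in the heterozygote and 14.7 in f5-j/j, while LOC_Os12g02370.4 had 10.1 in the heterozygote and 41.1 in f5-i/i among the authors' means.

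Some markers of tissues within the spikelet were also listed as different between the genotypes. Of 12 tapetum loci searched, 1 was listed, the lipid transfer protein C6 (LOC_Os11g37280.1), with authors' means of 33.8 in f5-i/i, 34.1 in the heterozygote and 0.413 in f5-j/j. It was listed lower in f5-j/j than in both other genotypes, as the catalase and LOC_Os01g25820.2 were. That pattern was shared by 49 listed transcripts in all, and a link among them was not tested. The 3 peroxidases were listed lower in f5-j/j than in the heterozygote, and their f5-i/i mean is not known. Of 12 floral organ loci 1 was listed, OsMADS2 (LOC_Os01g66030.2), which acts in lodicule development, with authors' means of 31.3 in f5-i/i against 5.98 in f5-j/j. The other 11 loci of each list were not in the filtered tables, so the labelled tissue could not be checked by them. Described light-harvesting, photosystem and chlorophyll proteins of green hull tissue had 12 transcripts with means for all 3 genotypes. By the authors' mean these summed to 280 in f5-i/i, 1485 in the heterozygote and 1041 in f5-j/j. Each of the 12 was listed because it differed between genotypes, so the sums do not measure the amount of green tissue. They also weight abundant transcripts most, in a unit that may not allow for transcript length, and may hold more than 1 model of a locus. For the heterozygote against f5-j/j, the comparison of the peroxidases, 4 of 5 listed green tissue transcripts were higher in the heterozygote. Of all transcripts in that authors' deposited table, 44.6% were higher. For the heterozygote against f5-i/i it was 23 of 24 (53.3% of all listed). Between the homozygotes 0 of 8 were higher in f5-i/i (45.1% of all listed). The part of these tissues in the differences of the peroxidases, L-ascorbate peroxidase and glutathione peroxidase was not tested.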

How the data were processed

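PolyA RNA of 9 spikelet samples was read on an Illumina instrument, per the labels' protocols. The submitters' processing notes list RSEM, Bowtie and BWA with neither version nor role. Not given in the sources used here are genome build, annotation version and normalization. These 3 tables are filtered lists. Per the file headers they give the authors' mean signal of a transcript in each genotype, a deposited log2 ratio and a deposited probability, which is a score and not a p-value. Genotypes of the columns came from the table names. All coding lengths were multiples of 3.

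Deposited log2 ratios were recomputed from the means, and the counting was tested on simulated data (Python 3.11.15, pandas 2.3.3). No test was made: the loci and word lists were chosen with earlier results of these data known. Alternatives were a log2 ratio of at least 2 in size, a probability of at least 0.9, leaving out transcripts at the lowest value, loci as unit, and pseudocounts of 0.1 and 1. All listed transcripts of the 5 loci are named, as is every locus of the hydrogen peroxide word list.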

Additional observations from a re-analysis of the deposited data

How the results depend on the processing

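No paired analysis was possible because the tables hold genotype means and no columns of single samples; leaving out replicates was not run for the same reason. With loci as the unit, or a log2 ratio of at least 2 in size, no count moved by over 1.5 times. At a deposited probability of at least 0.9, the peroxidases higher in the heterozygote than in f5-j/j went from 3 to 0. At that bound the other transcripts matched by the hydrogen peroxide words numbered 2 higher and 1 lower for the heterozygote against f5-i/i. They numbered 0 and 0 for the heterozygote against f5-j/j, and 0 and 1 between the homozygotes. The 1 lower for the heterozygote against f5-i/i was LOC_Os09g38010.2, matched only by a lower-ranked description. Leaving out transcripts at the lowest value left 1 of the 5 transcripts lower for the heterozygote against f5-i/i, 0 lower for the heterozygote against f5-j/j and 0 higher between the homozygotes. The other transcripts then numbered 1 higher and 1 lower, 2 and 1, and 2 and 2 in the same order. With the highest-ranked description alone, an alternative chosen after seeing the data, 1 was lower for the heterozygote against f5-i/i and 1 for the heterozygote against f5-j/j. These settings remove transcripts by construction. The log2 ratios of the 5 transcripts kept their direction with either pseudocount. A pseudocount of 1 brought those of the L-ascorbate peroxidase to -4.72 and -5.41 and those of the glutathione peroxidase to -4.95 and 4.95. It brought the ratio of LOC_Os12g02080.2 from 4.76 to 4.34, that of LOC_Os03g22010.1 from 11.1 to 6.40 and that of LOC_Os05g04500.1 from 13.2 to 7.23. Depth is unknown, so it cannot be said how many reads a mean of 0.01 excludes.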
